A study of Rattus norvegicus with 12 samples.

Results

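The genes described here encode proteins that the liver secretes into plasma, together with the acute phase genes of inflammation. The list names 49 rat genes. A gene was taken as measured where at least 1 probe set of the array is annotated to its symbol alone, which held for 44 of the 13643 genes so annotated and for 51 of the 29176 probe sets, each with a value in all 12 rats. Transferrin (Tf) and kininogen (Kng1) had no probe set to themselves (theirs match further genes as well), and F7, F11 and F13b had no annotated probe set. By class, 14 of 14 acute phase and protease inhibitor genes, 14 of 18 coagulation and fibrinolysis genes, 5 of 5 complement genes and 11 of 12 carrier genes were measured. Liver mRNA was profiled in 12 male Sprague-Dawley rats dosed once daily by mouth for 5 days, 3 rats each with vehicle or with A-998679 at 30, at 100 or at 200 mg/kg. A-998679 is a compound that was studied for inducing Cyp1a enzymes through the aryl hydrocarbon receptor. The vehicle was 0.2% hydroxypropylmethylcellulose given at 10 ml/kg, and the sources do not state what the compound was suspended in. Every rat was fasted overnight after the last dose and contributed 1 array of whole frozen liver. No age was found for the rats, and the labels put their weight at 176 to 200 g, whereas the methods give a higher weight. The top dose is 200 mg/kg in the titles and in the methods, whereas another label of the same rats reads 300 mg/kg.

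Hepatocytes make most plasma proteins, and they transcribe these genes at high rates under liver-enriched factors such as HNF1, HNF4, C/EBP and FOXA. In inflammation, interleukin-6 from macrophages acts through STAT3 to raise positive acute phase proteins (alpha-2-macroglobulin and fibrinogen in the rat, for example), while albumin, transthyretin and other negative acute phase proteins decline. The coagulation factors and their inhibitors, the complement components and the carriers of lipids, iron, heme and hormones come from the same cells. Because whole liver was measured, fewer cells of a type and less RNA per cell cannot be told apart.

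The promoters below are shown because the results turn on Apoa4 and on the fibrinogen genes, and because these regions carry short matches to factors known for liver and acute phase genes. Apoa4 lies on chromosome 8 of the GRCr8 assembly (55435779 to 55438160) in a cluster with Apoa5 (55446329 to 55460509), Apoc3 (55428172 to 55430352) and Apoa1 (55423945 to 55425729). Fgg, Fga and Fgb, which encode the gamma, alpha and beta chains of fibrinogen, lie together on chromosome 2 between 170652929 and 170700875. The sequences are from RefSeq (GRCr8) and run 5′ to 3′ from 250 bases before to 50 bases after the start annotated for the promoter. The Fgg window begins at 170652833, fewer than 250 bases before the first base of the gene (170652929). Its start therefore lies inside the gene as positioned here. Capitals mark matches, on either strand, to the interleukin-6 response element core CTGGGAA, the STAT site TTCNNNGAA, the HNF1 element GTTAAT or the C/EBP site TTGCNNAA.
Apoa4, chr8:55435529-55435828, plus strand: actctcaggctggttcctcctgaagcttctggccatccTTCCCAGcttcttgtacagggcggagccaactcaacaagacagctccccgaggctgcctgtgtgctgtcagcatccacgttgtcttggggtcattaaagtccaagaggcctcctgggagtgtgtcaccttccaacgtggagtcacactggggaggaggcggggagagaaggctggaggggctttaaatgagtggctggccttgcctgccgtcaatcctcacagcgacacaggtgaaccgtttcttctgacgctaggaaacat
Fga, chr2:170671919-170672218, plus strand: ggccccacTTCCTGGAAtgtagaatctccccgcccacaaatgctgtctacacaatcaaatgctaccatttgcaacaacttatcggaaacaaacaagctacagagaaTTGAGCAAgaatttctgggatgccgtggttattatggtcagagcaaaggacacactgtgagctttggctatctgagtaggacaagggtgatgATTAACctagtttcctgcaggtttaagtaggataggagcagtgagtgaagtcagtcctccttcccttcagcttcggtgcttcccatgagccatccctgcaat
Fgb, chr2:170700826-170701125, minus strand: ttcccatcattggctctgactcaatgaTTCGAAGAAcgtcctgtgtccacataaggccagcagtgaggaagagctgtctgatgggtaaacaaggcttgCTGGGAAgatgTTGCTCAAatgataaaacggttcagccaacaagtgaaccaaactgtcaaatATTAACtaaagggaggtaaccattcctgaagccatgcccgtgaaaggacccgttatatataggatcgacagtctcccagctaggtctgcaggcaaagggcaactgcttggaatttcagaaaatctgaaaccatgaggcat
Fgg, chr2:170652833-170653132, plus strand: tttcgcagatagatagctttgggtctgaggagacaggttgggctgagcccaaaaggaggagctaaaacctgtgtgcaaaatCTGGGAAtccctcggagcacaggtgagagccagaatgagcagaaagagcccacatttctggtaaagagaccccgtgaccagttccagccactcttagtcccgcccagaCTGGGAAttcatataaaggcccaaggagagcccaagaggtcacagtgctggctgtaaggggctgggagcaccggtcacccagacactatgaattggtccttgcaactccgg

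The Apoa4 window held 1 match, to CTGGGAA on the reverse strand. The Fgb window held a match to each of the 4 motifs, the Fga window to all but CTGGGAA, and the Fgg window to CTGGGAA at 2 places. The table matched 40 of the 49 genes, with 41 promoters. CTGGGAA occurred in 31.7% of these 41 promoters and in 11.3% of all 33469, TTCNNNGAA in 17.1% and 8.87%, GTTAAT in 26.8% and 7.45%, and TTGCNNAA in 43.9% and 10.6%. No matches overlapped in the 4 sequences shown. The matches are a description of the letters and do not show a site in use. A2m, Hp, Serpind1, C9, Fetub, Apoa1, Apoa2, Apob and Apoc3 had no entry.

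Values are given as log2 intensity, on which a difference of 1 is a 2-fold difference. Array medians lay between 5.21 and 5.26, and 12.1% of all values were empty, none of them in a member probe set. Of 8 hepatocyte markers, 6 had a probe set of their own, and all (Cps1, Tat, Hpd, Fah, Tdo2, Cyp2e1) were far above the 25th percentile of values, with summed intensities of 26016 to 28823 in vehicle rats and 25140 to 28728 at 200 mg/kg. Summed Kupffer cell markers (5 of 6 measured) were 1438 to 1947 in vehicle rats and 1510 to 2060 at 200 mg/kg, with 0 of 5 called in any comparison with vehicle by limma and 0 at an unadjusted p under 0.05. Neutrophil markers (3 of 6 measured) summed to 19.4 to 42.0 units in vehicle rats and 6.87 to 30.3 units at 200 mg/kg, with empty values adding nothing. Camp read -0.58, -2.28 and 1.58 in vehicle rats, under the 25th percentile of values (3.84), and was empty in every rat at 200 mg/kg. It could not be tested at that dose, and its values were too dim to tell a loss from noise. The 6.87 was S100a9 alone, in rat 2, so the neutrophil sums do not cover the same markers in both groups. Where they could be tested, none of the measured markers of neutrophils, endothelial cells, stellate cells, cholangiocytes, lymphocytes or erythroid cells was called at any dose. At 200 mg/kg all measured markers of Kupffer cells (5, median difference 0.11), endothelial cells (5, 0.22), cholangiocytes (3, 0.64) and lymphocytes (3, 0.70) nevertheless had a mean above vehicle, though 0 of them passed 0.05 before adjustment. Some of these means rest on few and dim values. At 200 mg/kg the endothelial marker Vwf and the cholangiocyte marker Krt7 had a value only in rat 3. Vwf read -8.14 in vehicle rat 1, and the lymphocyte marker Cd79b was empty in vehicle rat 3. Before adjustment 1 endothelial marker passed at 30 mg/kg and 1 lymphocyte marker at 100 mg/kg, both higher. The part of these cells in the values of the members was not tested. A gene with more than 1 probe set is represented by the brightest on average over the 12 rats.

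At 200 mg/kg, 1 of the 44 genes was called, and it was lower. This was Apoa4, which encodes apolipoprotein A-IV, a component of lipoproteins made by intestine and, in rodents, by liver. Apoa4 stood at 11.78, 11.63 and 11.80 in the vehicle rats, at 11.50, 11.32 and 11.40 at 30 mg/kg, at 11.56, 11.08 and 11.63 at 100 mg/kg, and at 10.67, 10.74 and 10.53 at 200 mg/kg. Every rat at 200 mg/kg lay below the other 9 rats, and at 30 mg/kg every rat lay below the vehicle rats. At 200 mg/kg Apoa4 fell by 1.09 log2 units (SE 0.13, 95% interval -1.37 to -0.81, adjusted p = 0.00345, limma), which is 2.13-fold lower. The call was lost when the variance was not modelled on intensity (adjusted p = 0.124) and with the methods' t-test after Benjamini-Hochberg adjustment (adjusted p = 0.193).

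**Figure D1:**
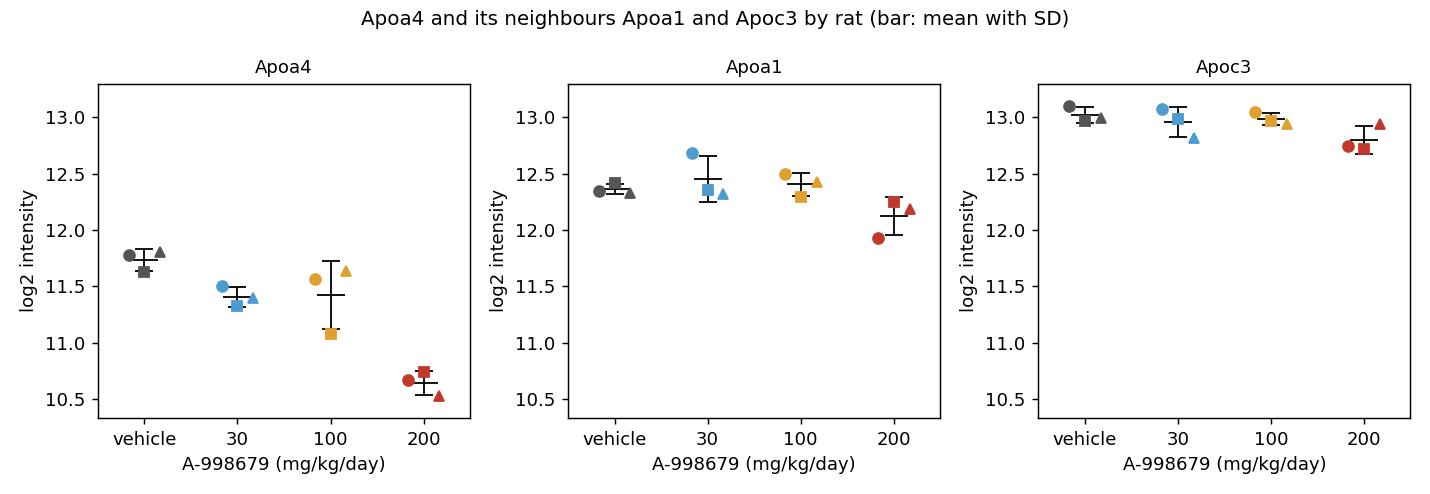
Log2 intensity of Apoa4, Apoa1 and Apoc3 in each rat (symbols; circle, square and triangle are rats 1, 2 and 3) by dose in mg/kg/day, with group mean and SD (bars, n = 3). Apoa4 in the rats at 200 mg/kg sat between 10.53 and 10.74, under every other rat.

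The Apoa4 difference was larger in size than those of its neighbours in the same cluster, though 3 rats a group are too few for the exact test of that gap to reach 0.05. Apoa5, an activator of triglyceride clearance that is not on the list of members, differed by -0.33 at 200 mg/kg (adjusted p = 0.514, limma). Apoa1, the main protein of high density lipoprotein, differed by -0.24 at 200 mg/kg (adjusted p = 0.589, limma), and Apoc3, an inhibitor of triglyceride clearance, by -0.22 (adjusted p = 0.526). Within each rat, Apoa4 minus Apoa1 averaged -0.63 ± 0.14 in vehicle rats and -1.48 ± 0.20 at 200 mg/kg (SD, n = 3 each). The groups did not overlap, and the 2-sided exact permutation test gave p = 0.1, the smallest that 3 rats against 3 allow. Apoa4 minus Apoc3 moved by -0.87 and Apoa4 minus Apoa5 by -0.76, each with the same exact permutation p of 0.1. Apoa4 was called in these same rats, so the pair tests are not separate evidence for its fall.

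The rest of the genes did not pass at 200 mg/kg, although most lay slightly below vehicle. Of the 44 genes, 41 had a lower mean at 200 mg/kg, with a median log2 difference of -0.17 (11.1% lower), against -0.0013 over all probe sets tested. The share called lower over all probe sets was 0.0926% at an adjusted p of at most 0.05. At an unadjusted p of at most 0.05, 16 genes were lower and 0 higher, beside 4.34% of all probe sets. This count rested on single rats: it was 7, 9 and 9 without vehicle rat 1, 2 or 3, and 5, 10 and 26 without rat 1, 2 or 3 at 200 mg/kg. It was 3 when the variance was not modelled on intensity. In 20 genes all 3 rats at 200 mg/kg lay below all 3 vehicle rats, which 7.3% of all probe sets did. Of the 118 probe sets with a mean over 12, where 26 of the 44 genes lie, 24.6% did. The 118 include the bright members, so this share is not independent of them. The median over the 90 other probe sets of that brightness was -0.10, with 70% of them below vehicle, so bright probe sets that are not members lay lower too. Those 90 include further plasma protein genes, such as Ambp, Gc and Apoe. The median was -0.16 in the 26 members with a mean over 12 and -0.19 in the 18 members at or under it. With quantile normalization the member median was -0.07, with 36 of 44 below vehicle, 5 with an unadjusted p of at most 0.05, and 14 of 44 not overlapping, beside 7.15% of all probe sets (chosen for the last count after the data were seen).

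**Figure D2:**
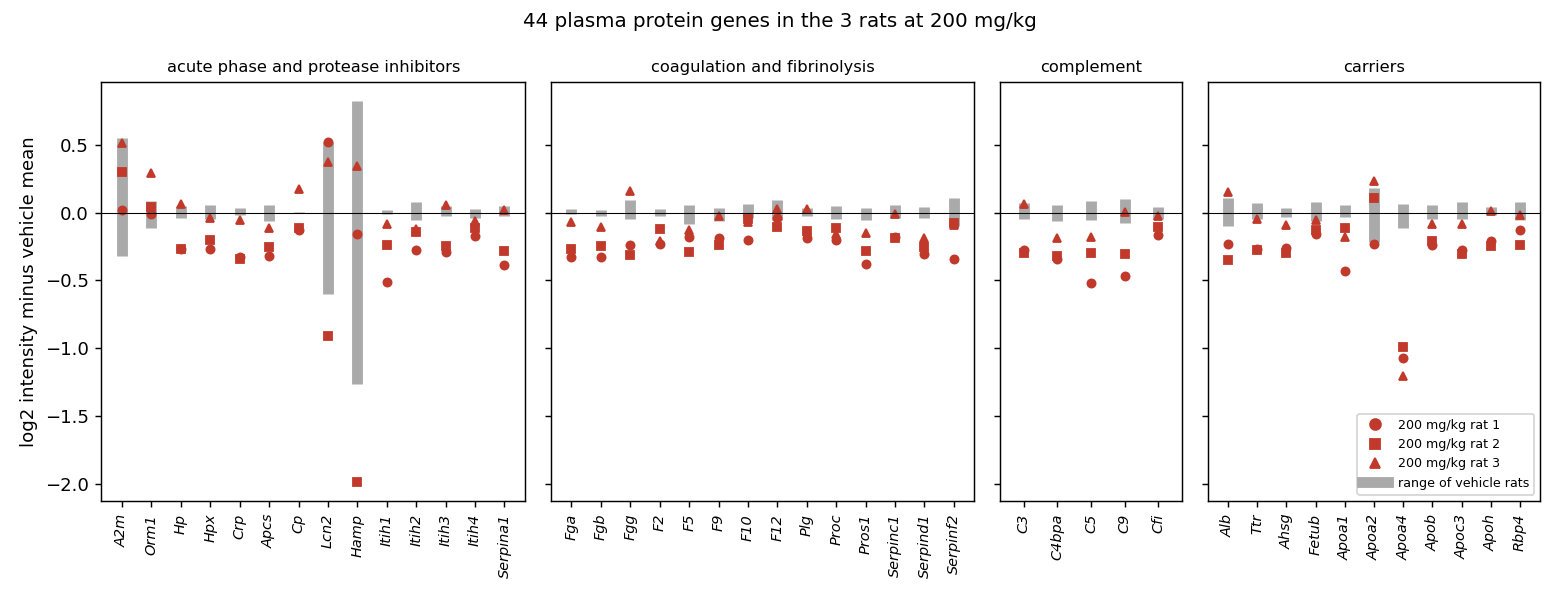
Log2 intensity minus the vehicle mean for the 44 genes in the 3 rats at 200 mg/kg (red symbols), with the range of the vehicle rats (gray bars), by class. Apoa4 stands about 1 log2 unit under vehicle in all 3 rats, Hamp and Lcn2 spread widely, and most other genes lie just under the vehicle range in rats 1 and 2.

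This shift was carried by 2 of the 3 rats. Rat 1 at 200 mg/kg lay below every vehicle rat for 39 of the 44 genes and rat 2 for 40, whereas rat 3 did so for 20 genes and lay above every vehicle rat for 7. Large counts below every vehicle rat were not confined to the top dose. Rats 1, 2 and 3 of the 30 mg/kg group had 9, 25 and 34 such genes. For the 100 mg/kg group the counts were 12, 28 and 26, in the same order. No share over all probe sets was set beside these counts of single rats. For the top dose, the median difference from the vehicle mean was -0.25 in rat 1, -0.25 in rat 2 and -0.05 in rat 3. The other bright probe sets moved with it, at -0.17, -0.15 and 0.05 in the same rats. The highest value on the array was 12.98, 13.10 and 13.34, against 13.24 to 13.40 in vehicle rats. It is not separate from the members, since the 13.34 of rat 3 was Alb itself. The 99th percentile of the array was 11.30, 11.26 and 11.36, against 11.32 to 11.36 in vehicle rats. Array medians were 5.26, 5.21 and 5.23, against 5.22 in each vehicle rat. Without rats 1 and 2, a setting chosen after the data were seen, the member median was -0.05, with 28 of 44 genes below vehicle and 1 at an unadjusted p of at most 0.05. Apoa4 differed by -1.2 in that fit (adjusted p = 0.0355, limma), where the lone rat is assumed to vary like the other groups. The part of array brightness in the small differences of the other genes was not tested.

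**Figure D3:**
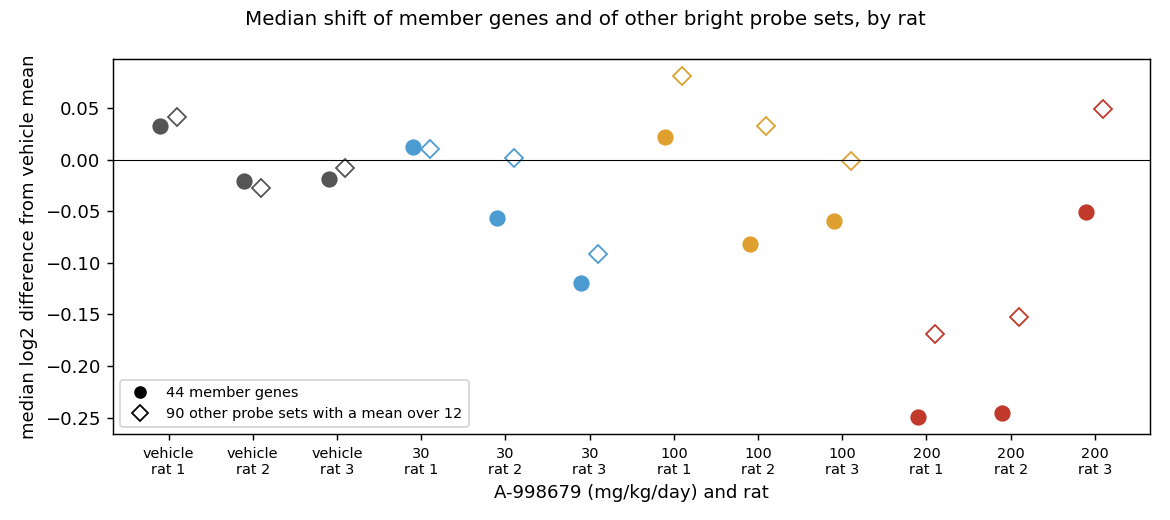
Median log2 difference from the vehicle mean in each of the 12 rats, for the 44 genes (filled circles) and for the 90 other probe sets with a mean log2 intensity over 12 (open diamonds). Rats 1 and 2 at 200 mg/kg were lowest for both, at -0.25 for the genes.

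Among acute phase and protease inhibitor genes, 0 of 14 were called at 200 mg/kg, with 12 of 14 below vehicle, a median of -0.16, and 3 lower and 0 higher by an unadjusted p of 0.05 or less (limma). The 3 were Apcs, Itih1 and Crp. Apcs, which encodes serum amyloid P component, stood at 12.13, 12.19 and 12.06 in vehicle rats and 11.81, 11.87 and 12.02 at 200 mg/kg (difference -0.23, adjusted p = 0.397). Crp, which encodes C-reactive protein, stood at 12.70, 12.64 and 12.66 in vehicle rats and 12.34, 12.33 and 12.61 at 200 mg/kg (difference -0.24, adjusted p = 0.456). The vehicle and 200 mg/kg groups did not overlap in either gene, rat 3 lying closest to the vehicle rats. Itih1, a heavy chain that binds hyaluronan, differed by -0.28 (adjusted p = 0.405).

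The acute phase genes A2m, Orm1, Hp, Cp, Crp, Lcn2 and Hamp were not called at any dose by any of their probe sets (fibrinogen is given with the coagulation genes). Orm1, which encodes alpha-1-acid glycoprotein, read 11.83, 11.63 and 11.77 in vehicle rats and 11.73, 11.78 and 12.04 at 200 mg/kg, rat 3 being above all vehicle rats and the other two within their range (difference 0.11, 95% interval -0.20 to 0.42). Hp, the hemoglobin scavenger haptoglobin, read 13.16, 13.07 and 13.09 in vehicle rats and 12.84, 12.84 and 13.17 at 200 mg/kg (difference -0.16, adjusted p = 0.724, limma). Its mean difference turned positive, 0.07, with rats 1 and 2 left out. The ferroxidase ceruloplasmin (Cp) had 3 probe sets, of which the 2 bright ones differed by -0.02 and -0.09 and a dim one by -0.46 (adjusted p = 0.301), so the probe sets of this gene gave unequal values.

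Hamp, A2m and Lcn2 varied between rats far more than the other members. Their SD within groups was 0.70 or more, whereas it was 0.243 or less in each of the other 41 genes and 0.098 at the median gene, close to the 0.099 of all probe sets with a mean over 12. Hamp encodes hepcidin, the hormone that blocks iron export from cells. It stood at 12.20, 11.83 and 10.12 in vehicle rats, at 9.64, 11.43 and 9.31 at 30 mg/kg, at 11.77, 8.94 and 12.26 at 100 mg/kg and at 11.22, 9.39 and 11.73 at 200 mg/kg. The groups overlapped and the whole range was 9.98-fold, so the difference at 200 mg/kg could only be placed between -2.46 and 1.25 (95% interval). A2m, the broad protease inhibitor alpha-2-macroglobulin, stood at 8.53 in rat 1 at 30 mg/kg and between 5.35 and 6.46 in the other 11 rats. Lcn2, the siderophore-binding lipocalin of inflamed liver, stood at 3.73, 4.41 and 4.85 in vehicle rats and 5.14, 6.88 and 5.15 at 100 mg/kg. All 3 rats at 100 mg/kg lay above every vehicle rat, yet the difference of 1.40 did not pass (SE 0.51, adjusted p = 0.753, limma), and at 200 mg/kg the values were 4.85, 3.42 and 4.70. The 25th percentile of all values was 3.84, so most Lcn2 values were near the dim end.

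**Figure D4:**
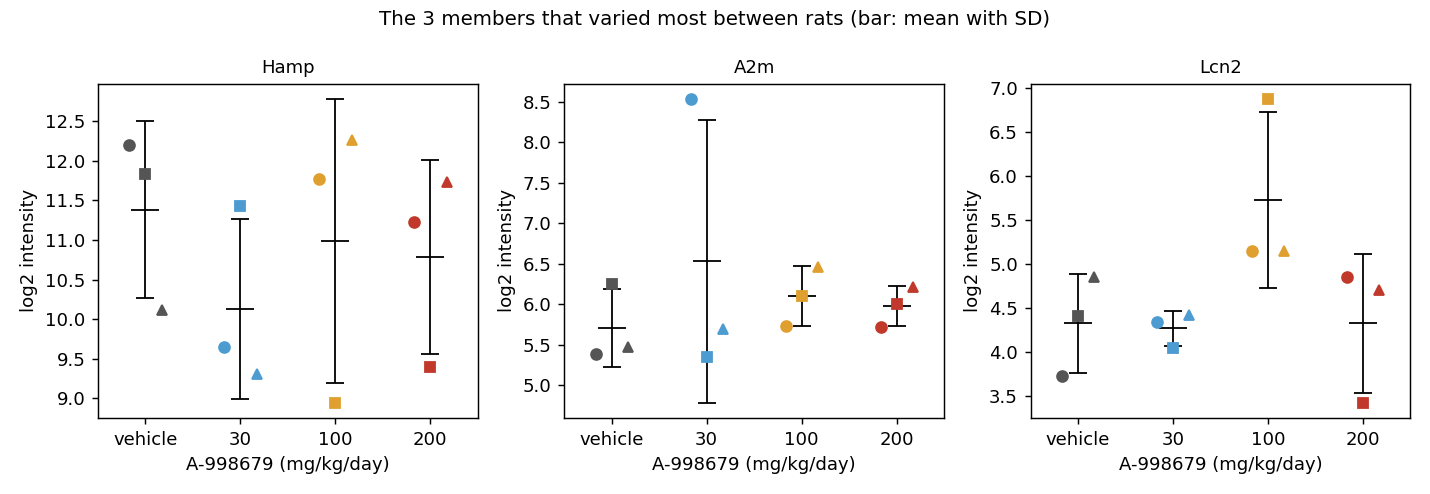
Log2 intensity of Hamp, A2m and Lcn2 in each rat (symbols; circle, square and triangle are rats 1, 2 and 3) by dose in mg/kg/day, with group mean and SD (bars, n = 3); each panel has its own scale. A2m is high in 1 rat at 30 mg/kg (8.53) and Lcn2 in 1 rat at 100 mg/kg (6.88).

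In the coagulation and fibrinolysis class, 0 of 14 genes were called at 200 mg/kg by the probe set that stands for the gene, all 14 lay below vehicle, and the median was -0.16, with 5 lower and 0 higher by an unadjusted p of 0.05 or less (limma). Pros1, which encodes protein S, the cofactor of activated protein C, stood at 10.20, 10.11 and 10.18 in vehicle rats and 9.78, 9.88 and 10.01 at 200 mg/kg (difference -0.27, adjusted p = 0.318). Serpind1, which encodes heparin cofactor II, a thrombin inhibitor, stood at 11.74, 11.79 and 11.71 in vehicle rats and 11.44, 11.50 and 11.56 at 200 mg/kg (difference -0.25, adjusted p = 0.411). Neither gene overlapped between the groups. Prothrombin (F2) differed by -0.19 (adjusted p = 0.552), and the smallest difference in the class was -0.04 in F12, the contact factor XII.

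Fibrinogen, the clot precursor and an acute phase protein, gave unequal values between probe sets. The brighter Fga probe set stood at 12.76, 12.72 and 12.72 in vehicle rats and 12.40, 12.46 and 12.66 at 200 mg/kg (difference -0.22, adjusted p = 0.449, limma). The second, dimmer Fga probe set stood at 11.32, 11.43 and 11.16 in vehicle rats, at 11.22, 10.84 and 10.70 at 30 mg/kg, at 10.91, 10.94 and 10.92 at 100 mg/kg and at 10.08, 10.68 and 10.47 at 200 mg/kg. It fell by 0.89 at 200 mg/kg (SE 0.15, adjusted p = 0.0345), 1.86-fold lower, with every rat below the vehicle rats. With it, 2 of the 51 member probe sets were called at this dose. Within rats, the dimmer minus the brighter Fga probe set was -1.43 ± 0.13 in vehicle rats and -2.10 ± 0.28 at 200 mg/kg (SD, n = 3 each, 2-sided exact permutation p = 0.1, the smallest possible). The dimmer probe set was called in these same rats, so this test is not separate evidence either. The transcripts or exons that the 2 probe sets read are not annotated in the tables used. The adjusted p of the dimmer probe set lay between 0.0155 and 0.148 with single rats left out, and was above 0.05 when any of the vehicle rats, any of those at 100 mg/kg, or 1 of rats 1 and 3 of the top dose was omitted. Fgb differed by -0.23 (adjusted p = 0.455) and Fgg by -0.13 (adjusted p = 0.815), and a second Fgb probe set, with a mean of 5.56 in vehicle rats, differed by -0.66 (adjusted p = 0.463). The last Fgb probe set, with a mean of 2.86 at the dim end, differed by 0.58 (95% interval -1.21 to 2.38).

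**Figure D5:**
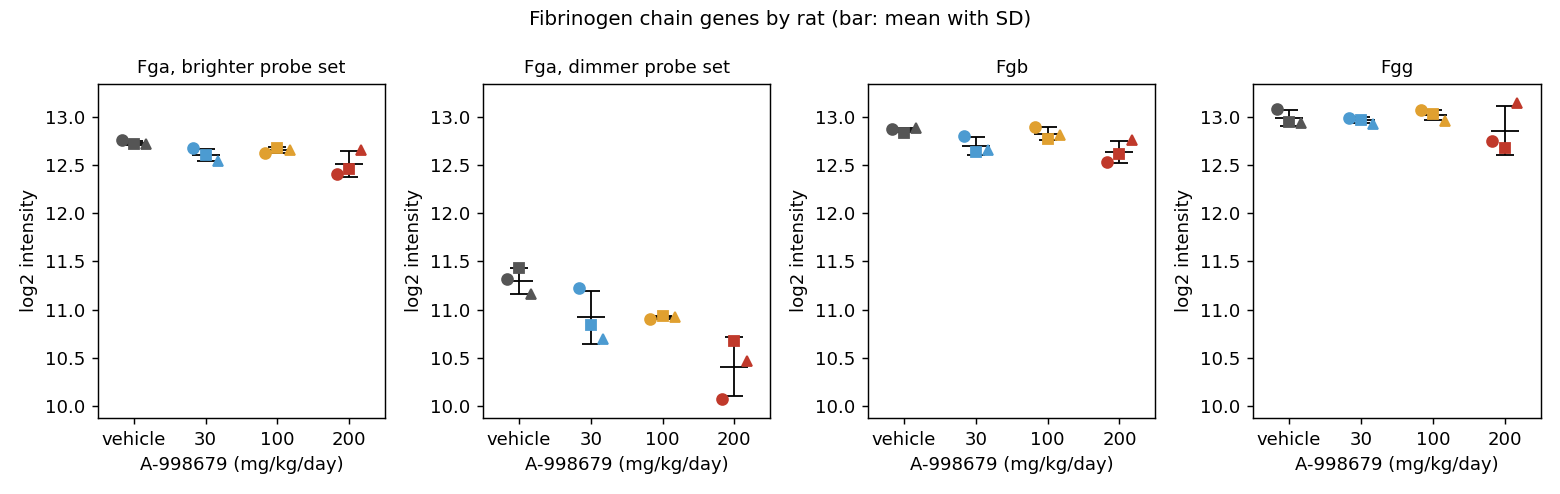
Log2 intensity of both Fga probe sets, Fgb and Fgg in each rat (symbols; circle, square and triangle are rats 1, 2 and 3) by dose in mg/kg/day, with group mean and SD (bars, n = 3), on 1 scale. The dimmer Fga probe set went from 11.30 on average in vehicle rats to 10.41 at 200 mg/kg, whereas the brighter one went from 12.73 to 12.51.

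All 5 complement genes lay below vehicle at 200 mg/kg, 0 were called, and the median was -0.26, with 3 lower and 0 higher by an unadjusted p of 0.05 or less (limma). C4bpa, which encodes the alpha chain of C4b-binding protein, an inhibitor of the classical pathway, stood at 11.70, 11.81 and 11.76 in vehicle rats and 11.42, 11.44 and 11.57 at 200 mg/kg (difference -0.28, SE 0.082, adjusted p = 0.256). C5, the source of the C5a anaphylatoxin, stood at 10.09, 10.23 and 10.12 in vehicle rats and 9.63, 9.85 and 9.97 at 200 mg/kg (difference -0.33, adjusted p = 0.501). Both were apart between the groups. C9, the pore-forming component, stood at 12.01, 12.14 and 11.96 in vehicle rats and 11.57, 11.73 and 12.04 at 200 mg/kg, and overlapped (difference -0.26, adjusted p = 0.519). C3, the central component, differed by -0.17 and Cfi, a protease that inactivates C3b, by -0.10.

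Apart from Apoa4, 0 of the other carrier genes were called at 200 mg/kg. The class had 10 of 11 genes below vehicle, a median of -0.18, and 5 lower and 0 higher by an unadjusted p of 0.05 or less, Apoa4 included. Ahsg, which encodes fetuin-A, an inhibitor of mineral deposition, stood at 13.16, 13.10 and 13.13 in vehicle rats and 12.87, 12.83 and 13.04 at 200 mg/kg, with no overlap (difference -0.22, adjusted p = 0.501, limma). Ttr, the thyroxine and retinol carrier transthyretin, stood at 13.122, 13.004 and 13.036 in vehicle rats and 12.784, 12.782 and 13.005 at 200 mg/kg, rat 3 lying within the vehicle range (difference -0.20, adjusted p = 0.562). Alb, which encodes albumin, stood at 13.29, 13.17 and 13.09 in vehicle rats and 12.96, 12.84 and 13.34 at 200 mg/kg, rat 3 being above all vehicle rats (difference -0.14, adjusted p = 0.817). The sign of the albumin difference depended on the scaling, and it was 0.03 with quantile normalization. Apoa2, an apolipoprotein of high density lipoprotein, was the one carrier gene with a higher mean, by 0.04.

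At the lower doses 0 of the 44 genes were called. At 100 mg/kg 2 genes were lower and 1 higher by an unadjusted p of 0.05 or less, the median was -0.04, and 0.0221% of all probe sets were called in either direction (limma), while 2.8% were lower and 3.18% higher at the unadjusted threshold. At 30 mg/kg 1 gene was lower and 0 higher, the median was -0.06, and 0.00739% of all probe sets were called, with 2.72% lower at the unadjusted threshold. These unadjusted counts of members are close to the unadjusted shares. Apoa4 accounted for the 1 gene at 30 mg/kg, where it differed by -0.33 (95% interval -0.61 to -0.05, adjusted p = 0.950), and for 1 of the genes at 100 mg/kg, where it differed by -0.31 (95% interval -0.59 to -0.04, adjusted p = 0.802). The other genes at 100 mg/kg were C9 (-0.24) and Lcn2. At 100 mg/kg, 9 of the 44 genes had all 3 rats below all 3 vehicle rats and 1 had them above, beside 6.23% and 6.91% of all probe sets. At 30 mg/kg these counts were 6 and 1, beside 5.31% and 5.07%. The mean lay below vehicle in 28 genes at 100 mg/kg and in 36 at 30 mg/kg, beside 49.4% and 50.4% of all probe sets. By the methods' t-test after Benjamini-Hochberg adjustment 0 members were called at either dose. Before adjustment 5 were lower at each dose, but no share over all probe sets was computed, so this count cannot be judged.

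The mean of the 3 doses against vehicle gave 0 called genes, with 4 lower and 0 higher by an unadjusted p of 0.05 or less (limma), a median of -0.08 and 0.061% of all probe sets called, with 2.76% lower at the unadjusted threshold. Apoa4 differed by -0.58 (adjusted p = 0.0907), and Pros1, C4bpa and C9 were the other 3. Over the 4 doses, with the top dose taken as 200 mg/kg, Apoa4 declined by a slope of -0.49 per 100 mg/kg (95% interval -0.64 to -0.34, adjusted p = 0.00544). Apoa4 was the one gene called, beside 0.12% of all probe sets called lower. Its slope call was lost with the floor (adjusted p = 0.0526, limma) and without a variance trend (adjusted p = 0.107). The dimmer Fga probe set had a slope of -0.39 per 100 mg/kg (adjusted p = 0.0442), a call that was lost with quantile normalization (0.0529), the floor (0.15), no variance trend (0.27) and array weights (0.0545) and that had an adjusted p between 0.015 and 0.166 with single rats left out, above 0.05 when any vehicle rat, any rat of the 100 mg/kg group, the first rat of the 30 mg/kg group, or 1 of rats 1 and 3 of the top dose was omitted. Between doses, Apoa4 at 200 mg/kg lay 0.76 log2 units below its mean at 30 mg/kg (95% interval of the difference -1.04 to -0.48, adjusted p = 0.0643) and 0.78 below its mean at 100 mg/kg (95% interval of the difference -1.05 to -0.50, adjusted p = 0.202), and 100 and 30 mg/kg differed by 0.02 (95% interval -0.26 to 0.29). These comparisons share rats with each other.

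Other secreted liver proteins and regulators of these genes were measured for context. Of 48 other secreted proteins, 39 had a probe set of their own. At 200 mg/kg 1 was called lower and 0 higher, and 38 of 39 lay below vehicle. The median was -0.17, and 12 were lower by an unadjusted p of 0.05 or less (limma). Over all probe sets 0.0926% were called lower, 50.1% lay below vehicle, and 4.34% were lower at the unadjusted threshold. The members, with 41 of 44 below vehicle and a median of -0.17, were thus not particular in this shift. The called gene of the other secreted proteins was Afm, which encodes afamin, a vitamin E-binding relative of albumin. Afm stood at 11.98, 12.05 and 12.12 in vehicle rats, at 12.20, 11.99 and 12.08 at 30 mg/kg, at 11.96, 11.67 and 11.80 at 100 mg/kg and at 11.29, 11.54 and 11.49 at 200 mg/kg, and it fell by 0.61 at the top dose (SE 0.099, adjusted p = 0.0242). Of 23 regulators, 21 were measured and 0 were called at 200 mg/kg. By an unadjusted p of 0.05 or less (limma), 4 were lower and 2 higher, beside 1173 and 1186 of all 26999 probe sets. The 4 with a lower mean were Onecut1, a liver homeodomain factor (-1.74, adjusted p = 0.460), Foxa3, a liver forkhead factor (-1.17, adjusted p = 0.219), Stat3 (-0.59, adjusted p = 0.511) and Hnf4a (-0.24, adjusted p = 0.528). The 2 with a higher mean were Nfkbia, an inhibitor of NF-kappaB (0.50, adjusted p = 0.501), and Il6st, the signalling subunit of the interleukin-6 receptor (0.27, adjusted p = 0.544). Il6 itself lay between -0.61 and 4.79 over the 12 rats, at the dim end of the array.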

How the data were processed

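Liver RNA of 12 rats was measured on Affymetrix RAE230 2.0 arrays. The authors deposited intensities on a log10 scale, 1 per probe set and array, from the Rosetta Resolver software, and for its background correction, scaling and empty values the sources used here give no detail. The base was read from the values and file. A table of the authors' own fold changes was not used. The log10 values were converted to log2 with no normalization added, and missing where empty. Group means and a slope over dose were fitted over all 4 groups with limma 3.58.1 in R 4.3.3, with a variance trend (8 residual degrees of freedom, 10 for the slope), and p-values were Benjamini-Hochberg adjusted over all probe sets tested, at 0.05. The number of arrays limits the precision. Figures used matplotlib 3.10.9 in Python 3.11.15.

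Members, classes and lists were chosen with earlier results of these data known. Named genes are all members called, the 3 with the smallest p at 200 mg/kg in each class, and 10 textbook acute phase and carrier genes (A2m, Orm1, Hp, Crp, Lcn2, Hamp, Fgb, Alb, Ttr, Ahsg); members named beside these were chosen after their values were seen. Genes were assigned to probe sets by the platform annotation (19691 with 1 symbol, 424 with several, which name no gene), and RefSeq GRCr8 gave positions and promoters. Alternatives were other scalings, a floor, a filter on dim values, array weights, variance without a trend or with a robust fit, fewer groups per fit, blocking on the rat number, another threshold, the methods' t-test, the mean over probe sets, dose ranks, and leaving out each rat.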

Additional observations from a re-analysis of the deposited data

How the results depend on the processing

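The rat numbers did not pair the rats: the 18 correlations between deviations of same-numbered rats lay between -0.07 and 0.08. With the rat number as a replicate block, 1 member gene was still called lower at 200 mg/kg (Apoa4, adjusted p = 0.00807) and 1 on the slope, and the dimmer Fga probe set was not called (adjusted p = 0.0511 at 200 mg/kg and 0.0646 on the slope). The count of genes called lower at 200 mg/kg became 0 without a variance trend and with the methods' t-test after Benjamini-Hochberg adjustment. It was 14 with that t-test unadjusted, which 2002 of all probe sets passed in either direction. Before adjustment this t-test called 5 at 100 mg/kg, 5 at 30 mg/kg and 6 over the doses together, without a count over all probe sets to set beside them. The count on the slope became 0 with the floor (Apoa4 adjusted p = 0.0526), without a variance trend and without rats 1 and 2 at 200 mg/kg. For the mean of the doses it became 1 (Apoa4) at an adjusted p of at most 0.10 and lay between 0 and 1 with single rats left out, being 1 without rat 2 at 100 mg/kg. For the dimmer Fga probe set at 200 mg/kg the adjusted p was 0.163 with the floor, 0.277 without a variance trend, 0.497 with the methods' t-test after Benjamini-Hochberg adjustment, and 0.0924 with only the compared groups in the fit.

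Leaving out rats 1 and 2 at 200 mg/kg, chosen after the data were seen, changed the class medians to 0.038 for acute phase and protease inhibitors, -0.082 for coagulation, -0.025 for complement and -0.052 for carriers, and the differences to 0.067 in Hp, 0.37 in Lcn2, 0.35 in Hamp, 0.0075 in C9 and 0.16 in Alb. Quantile normalization gave -0.049 for carriers and 0.027 for Alb. With single rats left out, the complement median at 100 mg/kg lay between -0.15 and -0.087. At 200 mg/kg Lcn2, which differed by -0.004 with all rats, lay between -0.30 and 0.45, and was 0.000772 with the common 75th percentile and 0.10 with the floor. Hamp lay between -1.23 and 0.093, the highest being without rat 2 at 200 mg/kg. The causes were not tested. Over all alternatives, 247 of 258 counts, nearly all of them counts of 0 or 1 gene, stayed within 1.5 times, and 305 of 312 class medians within the spread of the rats. Another threshold, no variance trend, a robust fit or another test cannot move a class median. Neither can omitting a rat outside the groups compared, so part of this agreement of medians was fixed in advance. Of 592 tests of single genes, 538 kept their sign and call, 34 lost a call, all in Apoa4 or the dimmer Fga probe set, 8 gained one, all with the unadjusted t-test, and 12 turned sign. The limits are 3 rats a group, a background correction that is not stated, and values near the dim end, such as those of Lcn2.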

Other observations

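Some rats stood apart for several member genes, as values chosen after they were seen. Rat 1 at 30 mg/kg, the rat with A2m at 8.53, was the highest of the 12 rats for 12 of the 44 genes, among them Apcs, Itih1, Itih2, Itih4, F2, F5, F12, Serpind1, C5 and Apoa1. Rat 2 at 100 mg/kg had the highest Lcn2 (6.88) and the lowest Hamp (8.94), F10, F12 and Proc. Hp, Crp and Orm1 in this rat, at 13.12, 12.55 and 11.74, lay within the range of the other rats. Rat 3 at 200 mg/kg had the lowest Apoa4 (10.53) although it was the highest of the 12 rats for Orm1, Cp, Itih3, Fgg, Alb and Apoa2. Rat 1 at 200 mg/kg was the lowest of all rats for 22 genes and rat 2 for 13. Both of these rats were also lowest in the median of the other bright probe sets (-0.17 and -0.15). No share over all probe sets was set beside any of these counts of single rats.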
